A study of Homo sapiens with 2 samples.

Results

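Genes for the small nuclear RNAs (snRNAs) of the U families were examined for R-loop signal in A549, an established human lung cancer line. They were taken as every gene that RefSeq's GRCh38.p14 annotation classes as snRNA, with a symbol starting in RNU or RNVU, on chromosomes 1 to 22. This gave 41 genes of 56756, among 151 snRNA genes in all, in 11 families: 4 U1, 17 U1 variants (RNVU1), 3 U2, 2 U4, 5 U5, 5 U6 and 1 each of U11, U12, U4ATAC, U6ATAC and U7. The label "spliceosomal" holds for 10 of the 11 families; U7 acts in the 3′ end processing of histone mRNAs. RN7SK has the same class but another symbol, and RNU2-63P carries a pseudogene's symbol but is classed as snRNA.

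The study made CUT&Tag libraries, in which a tethered transposase tags DNA near a bound antibody, from wild-type A549 cells in culture, with S9.6, an antibody against RNA-DNA hybrids, in 1 library and control IgG in 1. Its title places R-loops beside the RNA-binding protein YTHDF1, but both libraries have the wild-type genotype. Only the S9.6 peak list is described, and the IgG library was not used here. There was 1 library per antibody, so no value has a replicate and no test between libraries was made; 95% Wilson intervals cover counting error only. The list held 47810 peaks, 44994 of them on chromosomes 1 to 22. For each peak it gives the maximum coverage, which is the highest number of overlapping tagged pieces as read from the values, and the total signal, which is the coverage summed over the peak. The median maximum coverage was 2, 9.54% of peaks reached 5 and 1.39% reached 10. Sequencing depth is unknown from a peak list, so the lack of a peak at a gene says only that nothing there passed the authors' threshold.

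Spliceosomal snRNAs are short, abundant RNAs that recognise splice sites and form the catalytic core of the spliceosome. RNA polymerase II transcribes most of them, whereas RNA polymerase III transcribes U6 and U6ATAC. Both kinds of gene use a compact promoter with a proximal sequence element (PSE), bound by the SNAPc complex, and a distal element that often holds an octamer bound by OCT1 (POU2F1). Most families have a few active genes and a far larger number of pseudogene copies, and human U1 and U2 genes are repeated in near-identical copies. R-loops form where a new transcript pairs with its template strand, and heavily transcribed genes are a known place for them.

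Of the 41 genes, 26 had an S9.6 peak within 1000 bp of the gene (63.4%, 95% interval 48.1 to 76.4) and 15 had none. The same share was 33.9% over all 56756 genes and 11.6% over the 7949 other genes of 300 bp or less, a class that matches the 63 to 254 bp of the snRNA genes. That class includes the RNU-named pseudogenes and tRNA genes of such length, whose own shares are given below. Of the 110 snRNA genes outside the rule, 32 had a peak within 1000 bp (29.1%, interval 21.4 to 38.2). This share was uneven. A peak lay at all 12 unnamed genes near RNU2-1, described below, at 15 of 28 SNAR genes and at RN7SK. Among the 69 other unnamed snRNA genes only 4 had a peak (5.80%). The median maximum coverage of the 32 genes was 5.0, against 5.5 for the 26 genes. The 32 include the 12 genes near RNU2-1, whose own median was 11.5. The 26 genes drew on 31 distinct peaks, with 20 genes having 1 peak and 6 having 2. Every one of the 11 families had at least 1 gene with a peak. The share differed between the genes themselves: 7 of the 17 U1 variants had a peak (41.2%, 95% interval 21.6 to 64.0), as did 19 of the 24 others (79.2%, 95% interval 59.5 to 90.8). Reads from near-identical copies, as in U1 and U2, could have been placed at any of them; how the authors mapped such reads is not given in the sources used here, and values at these copies are uncertain.

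The peaks at these genes were higher than those at other short genes, but less set apart from those at tRNA genes and other snRNA genes. The strongest peak per gene had a median maximum coverage of 5.5 and ranged from 2 to 13, while the 923 other short genes with a peak had a median of 3. The 193 tRNA genes with a peak had a median of 5.0. Of genes with a peak, 65.4% reached 5 here, 53.9% among tRNA genes and 53.1% among other snRNA genes. A maximum of 10 was reached by 23.1% here, 6.74% among tRNA genes and 28.1% among other snRNA genes. The other snRNA genes with a peak include the 12 unnamed genes near RNU2-1, whose maxima ran from 6 to 45. A peak of 5 or more lay at 17 of the 41 genes (41.5%), against 8.79% of all genes and 3.47% of other short genes. A peak of 10 or more lay at 6 of 41 (14.6%), against 1.39% of all genes and 0.780% of other short genes. These 6 were RNU2-2, RNU4-1, RNU4-2, RNU12, RNU1-1 and RNU7-1, from 5 families. RNU4-1 and RNU4-2 shared 1 peak. Only the peak of RNU1-1 had no boundary of another kind of gene within 1000 bp. The others also lay at the protein-coding genes WDR74, SIRT4, POLDIP3 or C12orf57, and to which gene their height belongs was not tested. The plot of heights by gene shows that the U1 variants, U6, U11, U4ATAC and U6ATAC stayed at 5 or below.

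**Figure D1:**
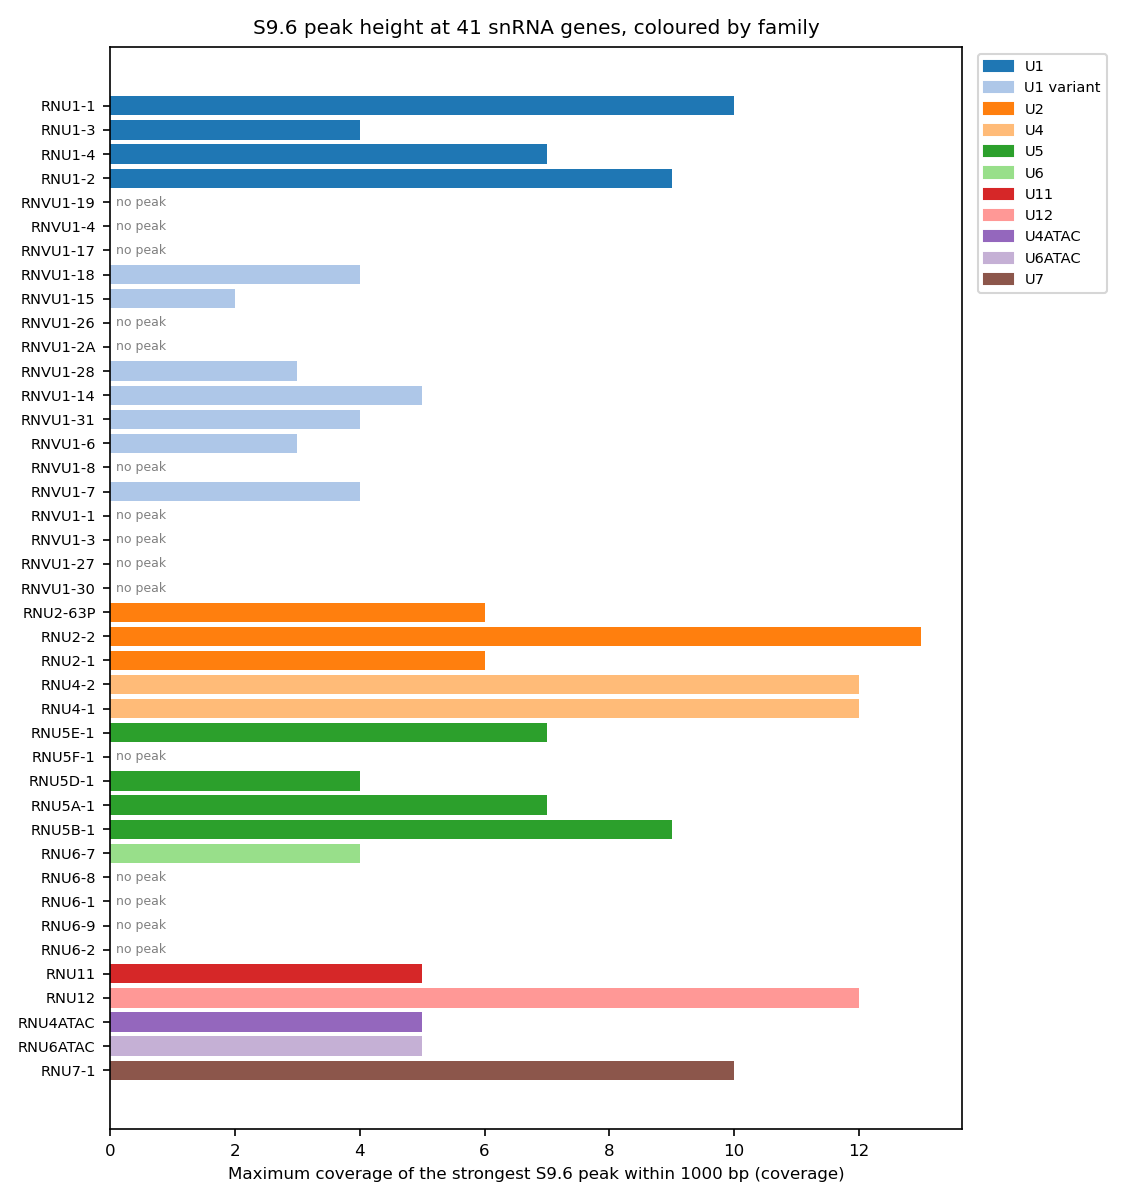
Maximum coverage of the strongest S9.6 peak within 1000 bp (x axis, coverage) for each of the 41 snRNA genes (y axis), coloured by family, from 1 library. RNU2-2 reached 13, and 15 genes, 10 of them U1 variants and 4 of them U6, had no peak.

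U1 snRNA pairs with the 5′ splice site and opens spliceosome assembly. Its 4 standard genes, RNU1-1 to RNU1-4, lie within 382 kb on chromosome 1, and all 4 had a peak, with maxima of 10, 9, 4 and 7 in the order of their numbers. RNU1-1 (chr1:16514122-16514285) had a peak 1083 bp wide at chr1:16512942-16514024 with a total signal of 3422, which ended 98 bp before the gene. At RNU1-2 (chr1:16895980-16896143) a peak 971 bp wide at chr1:16895721-16896691 with a total of 3509 covered the whole gene. RNU1-3 (chr1:16666785-16666948) was also wholly covered, by a wide and low peak of 1524 bp at chr1:16665706-16667229 with a total of 2622. None of these 3 peaks had the boundary of another gene within 1000 bp.

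RNU1-4 (chr1:16740516-16740679) had a peak on each side. The lower one, at chr1:16740190-16740540, was 351 bp wide with a maximum of 7 and a total of 1186. The upper one, at chr1:16740618-16741431, was 814 bp wide with the same maximum and a total of 2533. The 77 bp between them lay inside the 164 bp gene. An unnamed lncRNA gene, LOC124903859, ends before RNU1-4, and its boundary lies within 1000 bp of both peaks.

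The U1 variants, U1-like genes of which some are known to be expressed, had fewer and lower peaks than the 4 standard genes. Their maxima ran from 2 to 5 with a median of 4, against a median of 8 for the standard genes. RNVU1-14 was the highest, with a peak of 5 at chr1:145281354-145282210 (857 bp, total 2048) that began 75 bp past the gene, and a second peak of 3 on its other side, so that the 683 bp between them held the whole gene. RNVU1-18 had a peak of 4 over the gene at chr1:143729143-143729575 (433 bp, total 914) and a second of 2 farther out. RNVU1-31 had a peak of 4 that was 2325 bp wide, at chr1:145464066-145466390 (total 4609), and RNVU1-7 a peak of 4 at chr1:148037926-148039236 (1311 bp, total 2133), both over the whole gene. RNVU1-28 had a peak of 3 at chr1:144560743-144561225 (483 bp, total 829) over part of the gene. RNVU1-6 reached 3 and RNVU1-15 reached 2, the median of the whole list.

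No peak was listed within 1000 bp of RNVU1-1, RNVU1-2A, RNVU1-3, RNVU1-4, RNVU1-8, RNVU1-17, RNVU1-19, RNVU1-26, RNVU1-27 or RNVU1-30. These 10 were far from any peak, at 5988 to 82614 bp with a median of 24139 bp. The region as a whole had no fewer peaks than the chromosome: the 5.94 Mb of chromosome 1 that hold 15 of the 17 carried 95 peaks, or 16.0 per Mb, against 11.9 per Mb over chromosome 1. In that segment 7 of the 15 variants had a peak, beside 79 of the 220 other genes (35.9%) and 16 of the 61 other short genes (26.2%). The interval for all 17 variants, 21.6 to 64.0, holds both of these percentages. It includes the 2 variants outside the segment, RNVU1-4 and RNVU1-19, and none was computed for the 15. Close to the variants peaks were sparse: the number of other peaks within 50 kb had a median of 1 for variants with a peak (0 to 5) and for those without (0 to 2), against 4 for the other snRNA genes with a peak.

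U2 snRNA pairs with the branch point. All 3 U2 genes had a peak. RNU2-2 (chr11:62841619-62841809) had the highest of any snRNA gene here, at 13, and also the widest, at 3885 bp (chr11:62838432-62842316). Its total signal of 18991 ranked 66th among the 44994 peaks. The peak covered RNU2-2 entirely, but its summit, the middle of the authors' region of maximum coverage, lay 816 bp below the gene. WDR74, a protein-coding gene, ends its span on the same base as RNU2-2, at 62841809, and the same peak covers 2 of its annotated starts, at 62839590 and 62839659. The signal of RNU2-2 and that of WDR74 cannot be told apart in this peak.

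RNU2-63P (chr2:88016358-88016547) had a peak on each side of its lower part. The lower was 290 bp wide at chr2:88015911-88016200, with a maximum of 5 and a total of 801. The upper was 1406 bp wide at chr2:88016454-88017859, with a maximum of 6 and a total of 4185, and covered 49.5% of the gene. Its summit lay 183 bp above the gene and 26 bp from a match to the octamer, 209 bp above the gene. The match lies in the promoter window of a start of the lncRNA gene LOC105374852 at 88016878; the windows of 2 other starts overlap RNU2-63P.

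Both sequences below are the 250 bases before such a start, from RefSeq, GRCh38.p14, plus strand, which need not be the strand of RNU2-63P. The first, chr2:88016389-88016638, is shown because the upper peak begins in it; capitals mark its 159 bases of RNU2-63P. The second, chr2:88016628-88016877, is shown because it holds the summit; capitals mark the octamer, here ATTTGCAT, the reverse complement of ATGCAAAT.
RNU2-63P and beyond: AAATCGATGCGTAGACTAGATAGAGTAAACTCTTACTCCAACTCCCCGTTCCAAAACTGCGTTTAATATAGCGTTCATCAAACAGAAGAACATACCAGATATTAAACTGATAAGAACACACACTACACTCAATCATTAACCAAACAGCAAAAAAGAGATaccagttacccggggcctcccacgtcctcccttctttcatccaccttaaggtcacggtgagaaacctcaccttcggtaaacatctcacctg
RNU2-63P summit: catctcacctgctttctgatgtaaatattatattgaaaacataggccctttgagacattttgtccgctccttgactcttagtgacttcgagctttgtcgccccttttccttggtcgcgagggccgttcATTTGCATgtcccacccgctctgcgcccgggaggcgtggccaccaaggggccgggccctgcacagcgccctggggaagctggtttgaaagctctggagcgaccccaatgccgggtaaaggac
The upper peak begins 96 bp from the lower end of RNU2-63P, among the capitals of the first sequence.

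RNU2-1 (chr17:43233790-43233977) belongs to the tandem array of U2 genes on chromosome 17. A peak of 369 bp at chr17:43233734-43234102, with a maximum of 4 and a total of 923, covered the whole gene. A second, 102 bp further on at chr17:43234205-43235084, was 880 bp wide with a maximum of 6 and a total of 2651. Within 66.4 kb above the start of RNU2-1 the annotation lists 12 more snRNA genes of 191 or 192 bp that have only LOC numbers and so fall outside the rule. All 12 had a peak, with maxima from 6 to 45 and a median of 11.5, on 17 peaks. The highest were 45 at LOC124904138 and 35 at LOC124904137, and the lowest 6 at LOC124904140. Over the 70.4 kb from 2000 bp before RNU2-1 to 2000 bp past the last of these genes, 49.4% of bases lay under 29 peaks, against 3.16% of chromosome 17. RNU2-1, with its strongest peak at 6, was level with the lowest of this row. These 12 genes were picked out after their values were seen, and reads may have been spread among the copies.

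**Figure D2:**
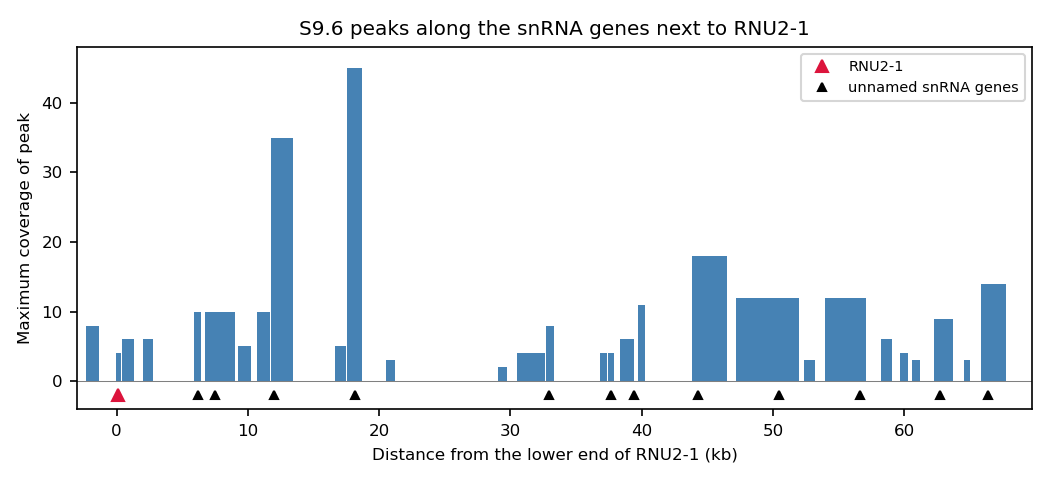
Peaks along chromosome 17 above RNU2-1: distance from the lower end of RNU2-1 (x axis, kb) and maximum coverage of each peak (y axis), with triangles for snRNA genes. Each of the 12 unnamed genes had a peak within 1000 bp, the highest, of 45, at LOC124904138.

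U4 snRNA holds U6 inactive by pairing with it until the spliceosome is activated. RNU4-2 (chr12:120291759-120291903) and RNU4-1 (chr12:120293093-120293237) shared a single peak of 3088 bp at chr12:120290716-120293803, with a maximum of 12 and a total of 10723. It covered both genes, and its summit lay between them, 390 bp above RNU4-2 and 800 bp below RNU4-1. Both genes count among the 26 but rest on 1 peak. The span of the protein-coding gene SIRT4 begins inside RNU4-2, and an annotated start of it at 120292189 lies between the U4 genes under the same peak.

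In the 300-base window around that start, 2 sequences are shown because they match promoter elements of snRNA genes, each with its flanks. They are from RefSeq, GRCh38.p14, plus strand, at chr12:120291944-120291971 and chr12:120292115-120292142. Capitals mark a match to a PSE-like pattern, ACCNNNNNTNNAA on the other strand, and a match to the octamer, ATGCAAAT.
PSE-like match: actaccaTTACATTGAGGGTgagtgcct
Octamer match: ggggaatcttATGCAAATcaacgtgacg
The first match lay 48 bp and the second 222 bp above the upper end of RNU4-2, and the octamer lay 161 bp from the summit.

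U5 snRNA aligns the exon ends during splicing. Of its 5 genes, 4 had a peak, with maxima of 9 at RNU5B-1, 7 at RNU5A-1 and RNU5E-1, and 4 at RNU5D-1. RNU5A-1 (chr15:65296051-65296167) and RNU5B-1 (chr15:65304677-65304793) are neighbours on chromosome 15. Their peaks looked alike in place and size: 1507 bp at chr15:65296115-65297621 with a total of 4781, and 1426 bp at chr15:65304753-65306178 with a total of 5678. Each began inside its gene, 64 bp and 76 bp from the lower end, and ran to higher coordinates, and neither had another gene's boundary within 1000 bp. The summits differed, at 335 bp above RNU5A-1 and 1162 bp above RNU5B-1.

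RNU5E-1 (chr1:11908152-11908272) had a peak of 925 bp at chr1:11908534-11909458 with a total of 2925, which began 262 bp past the gene, the greatest distance to a nearest peak among the 26 genes. The pseudogene RNU5E-4P lies on the other side of this peak and also had it within 1000 bp. RNU5D-1 (chr1:44731069-44731170) had a small peak of 430 bp at chr1:44730547-44730976 with a total of 881, which ended 93 bp before the gene. RNU5F-1, in the same region of chromosome 1, had none, its nearest peak lying 1238 bp away with a maximum of 2.

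U6 snRNA forms the catalytic centre with U2. It was the family with the lowest share: 1 of 5 genes had a peak (20.0%, 95% interval 3.62 to 62.4), while 4 of 4 standard U1 and 3 of 3 U2 genes did. RNU6-7 (chr14:32202045-32202151) had a peak of 1505 bp at chr14:32200582-32202086 with a maximum of 4 and a total of 2300, which ended inside the gene. Its neighbour RNU6-8 lay 1077 bp from the same peak and so just missed the window. RNU6-1 was 1311 bp from a peak of 2, RNU6-9 was 3382 bp from a peak of 3 and RNU6-2 was 4428 bp from a peak of 4. These genes did not stand in empty regions: the 5 genes outside the U1 variants that had no peak, 4 of them U6, had 2 to 8 other peaks within 50 kb, with a median of 6, against a median of 4 for those with a peak. With a window of 2000 bp 3 of 5 U6 genes counted, and with 5000 bp all 5.

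The genes of the minor spliceosome, which removes a small class of introns, each had a peak. U12 pairs with the branch point of these introns, as U2 does in the major class. RNU12 (chr22:42615244-42615393) had the highest of the 4, with a maximum of 12 and a total of 10322 in a peak of 2051 bp at chr22:42613988-42616038 that covered the gene. Its mean coverage of 5.03 was the highest of the 31 peaks. The start of POLDIP3 and that of LOC124905127 lie under it as well. U11, the counterpart of U1, had 2 lower peaks: RNU11 (chr1:28648600-28648734) had 1 of 3 at chr1:28647763-28648646 (884 bp, total 1406), which ended inside the gene, and, 611 bp further on, 1 of 5 at chr1:28649258-28649607 (350 bp, total 1147). TAF12 and TAF12-DT have a boundary within 1000 bp of both.

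U4ATAC and U6ATAC, the counterparts of U4 and U6, each had a peak of 5. The peak at RNU4ATAC (chr2:121530880-121531009) was 1397 bp wide at chr2:121530642-121532038 with a total of 3209 and covered the gene, which lies within the spans of CLASP1 and CLASP1-AS1. The peak at RNU6ATAC (chr9:134164439-134164564) was 1140 bp wide at chr9:134164514-134165653 with a total of 3602 and began 75 bp into the gene. LOC124902297, a lncRNA gene, has a boundary within 1000 bp of it. Grouped by polymerase, 2 of the 6 RNA polymerase III genes (33.3%, 95% interval 9.68 to 70.0) and 17 of the 18 RNA polymerase II genes outside the U1 variants (94.4%, 95% interval 74.2 to 99.0) had a peak. The 17 U1 variants, which the plan placed with RNA polymerase II, were left out of the second count. Of these 7 had a peak (41.2%, 95% interval 21.6 to 64.0), so counting them in would lower the RNA polymerase II share and narrow the contrast. The interval of the variants alone overlaps that of the RNA polymerase III genes. With so few genes, the RNA polymerase III interval is wide.

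RNU7-1 (chr12:6943816-6943878), at 63 bp the shortest of these genes, had a peak of 1112 bp at chr12:6943934-6945045 with a maximum of 10 and a total of 3952. No base of the gene lay under it; it began 56 bp past the gene and had its summit 402 bp away. The gene lies within the span of the protein-coding gene C12orf57, which has a start at 6944022 under the peak. The upper end of RNU7-1 is shown because the peak begins just past it. It is from RefSeq, GRCh38.p14, plus strand, chr12:6943861-6943888, with the last 18 bases of the RNU7-1 span in capitals.
RNU7-1 upper end: TTTTACCGGAAAGCCCCTcttatgatgt

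There were 10 promoter windows of 7 protein-coding or lncRNA genes that lay wholly or partly under these peaks. Of these, 2 held the octamer (20.0%, against 1.75% of 33725 windows of the same 300 bp), on either strand. Likewise 3 held the PSE-like pattern (30.0% against 8.28%) and 4 held TATAA (40.0% against 20.5%). The windows were taken because they lie at snRNA genes, so these shares are no test of the patterns. Of the 3 with the PSE-like pattern, 2 are overlapping windows of LOC105374852 with the same match, which lay inside RNU2-63P. Of the 4 with TATAA, 3 are windows of LOC105374852 that share 1 match, and the match in the window of C12orf57 lay outside the peak, so these shares do not count separate sites. These windows belong to neighbours, and their matches are letters only. None of the 41 snRNA genes has an entry in the promoter table used.

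Most of the peaks reached onto the genes, while most summits lay outside them. Of the 26 genes with a peak, a peak touched 21 (80.8%), against 46.4% of other short genes with a peak, 68.9% of tRNA genes and 29.2% of RNU-named pseudogenes. Of the 26, 12 were wholly under a peak, 9 partly and 5 not at all. Among the 21 that a peak touched, 9 (42.9%) had a peak edge inside the gene. Among touched genes of the other classes it was 22.9% of other short genes, 25.6% of tRNA genes and 31.6% of RNU-named pseudogenes (6 of 19). Exact gene length was not matched between these classes. The summit of the strongest peak lay inside the gene at 2 of 26 (7.69%), RNVU1-6 and RNVU1-18, against 3.90% of other short genes, and within 500 bp or inside at 18. The median distance was 362.5 bp, against 569 bp for other short genes and 355 bp for tRNA genes. By chromosome coordinates 16 summits lay above and 8 below the gene. The gene table gives no strand, so upstream was not told apart from downstream. The map of peaks by gene shows peaks that stop within the gene, as at RNU5A-1, RNU5B-1, RNU6ATAC and RNVU1-28, and pairs of peaks with the gene between or at the edge of them, as at RNU1-4 and RNVU1-14.

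**Figure D3:**
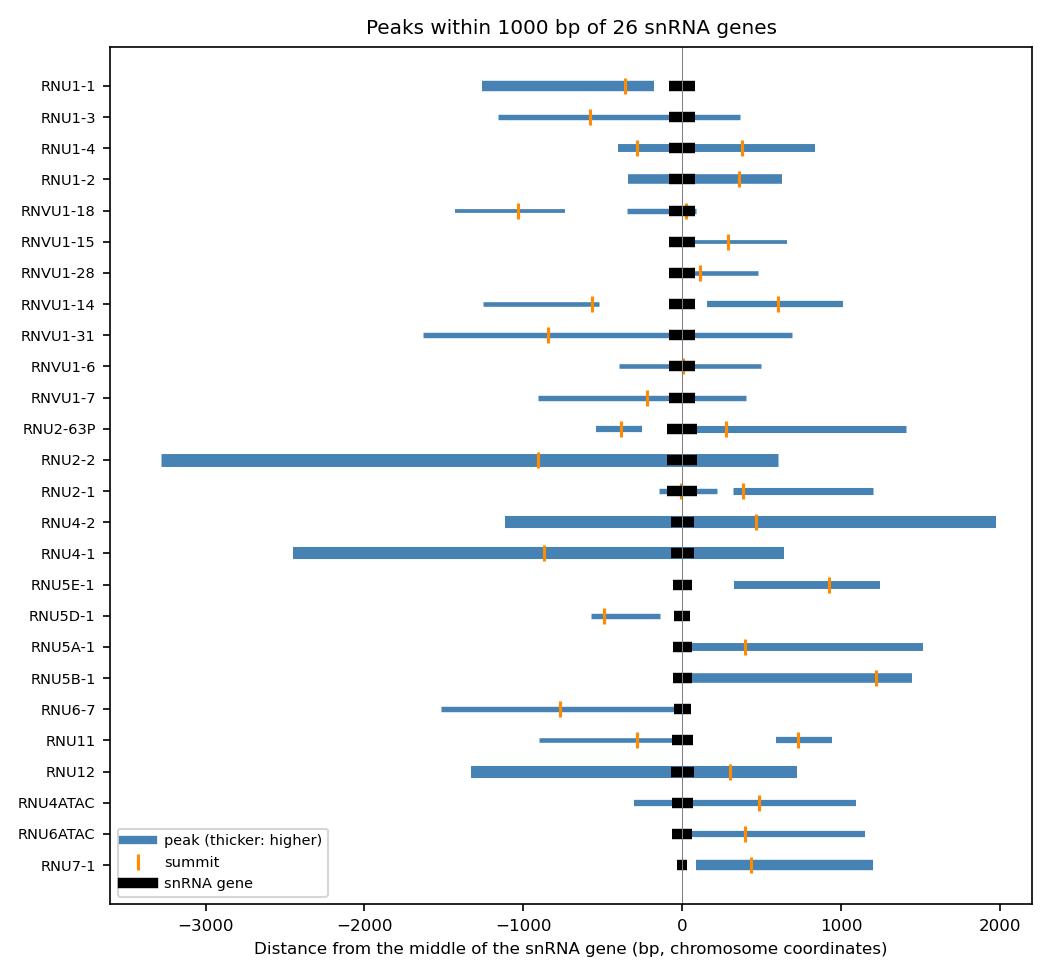
Peaks within 1000 bp of each of the 26 snRNA genes that had one (y axis), by distance from the middle of the gene (x axis, bp); bars are peaks, thicker where higher, orange ticks summits and black blocks genes. The summit lay outside the gene at 24 of 26.

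Peak cover was highest in the genes and their near flanks and fell with distance. Both flanks were pooled, so these shares do not show on which side of a gene the peaks lay. For the 24 genes outside the U1 variants, 52.4% of gene bases lay under peaks, 51.9% of bases in the first 200 bp of both flanks, 34.5% at 800 to 1000 bp, 15.1% at 1800 to 2000 bp and 2.09% at 3800 to 4000 bp. For U1 variants the share fell from 29.1% in the gene to 0% from 1600 bp outward. In other short genes it moved little, from 3.91% in the gene to 3.07% at 3800 to 4000 bp. At 3800 to 4000 bp the snRNA genes were thus no higher than other short genes.

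**Figure D4:**
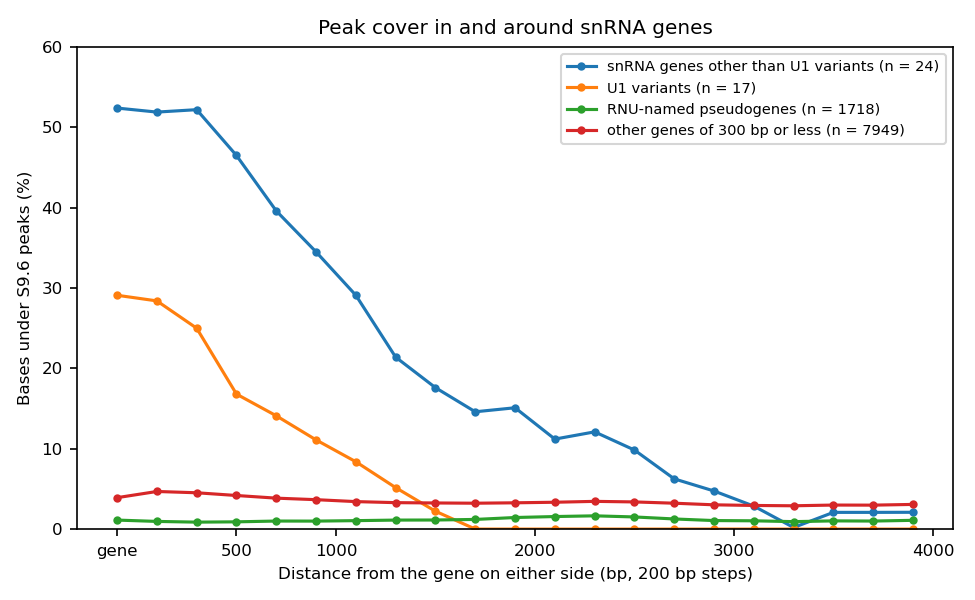
Share of bases under S9.6 peaks (y axis, %) in the gene and in 200 bp steps of both flanks (x axis, bp) for 24 snRNA genes outside the U1 variants, 17 U1 variants, 1718 pseudogenes and 7949 other short genes. The first group starts at 52.4% and ends at 2.09%.

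Other genes shared many of these peaks. At 14 of the 26 genes the strongest peak had a boundary of a gene other than an snRNA gene within 1000 bp, and their median maximum was 6.5 (3 to 13). At the other 12 it had none, and the median was 4 (2 to 10). Of these 12, the 8 that are no U1 variants, RNU1-1, RNU1-2, RNU1-3, RNU2-1, RNU5A-1, RNU5B-1, RNU5D-1 and RNU6-7, had a median of 6.5. Only gene ends were counted here, so a longer gene could still span such a peak, as CLASP1 spans RNU4ATAC. At U4, U11, U12, U4ATAC, U6ATAC and U7 no peak was free of a neighbour, and what part of the signal belongs to the snRNA gene was not tested.

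Pseudogenes of the same families, copies that mostly lack the promoter, had few peaks. Of 1718 RNU-named pseudogenes, 65 had a peak within 1000 bp (3.78%, 95% interval 2.98 to 4.79), with a median maximum of 2, and 9 reached 5. This was below the 11.6% of other short genes, a class that itself includes these pseudogenes where they are 300 bp or less. Among the larger families the share was 11.9% of 101 U1 pseudogenes, 6.15% of 65 for U2, 4.71% of 85 for U4, 14.3% of 28 for U5, 2.81% of 1208 for U6 and 3.11% of 161 for U7. For U1, U2, U4, U5, U4ATAC, U6ATAC and U7 the interval of the gene share lay above that of the pseudogenes, as the plot of shares by family shows. But U4ATAC, U6ATAC and U7 have 1 gene each, and the 2 U4 genes share 1 peak. The peak of RNU5E-1 also counts for the pseudogene RNU5E-4P. The intervals treat genes as independent, so this order is descriptive only. For U6 the gene interval of 3.62 to 62.4 overlapped that of its pseudogenes, 2.02 to 3.91. The intervals also overlapped for the U1 variants, at 21.6 to 64.0 against 2.24 to 47.1 for 1 of 8 pseudogenes, and for U11, where 0 of 5 pseudogenes had a peak. Of the other short RNA classes, 44.0% of 439 tRNA genes and 10.1% of 1150 snoRNA genes had a peak within 1000 bp.

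**Figure D5:**
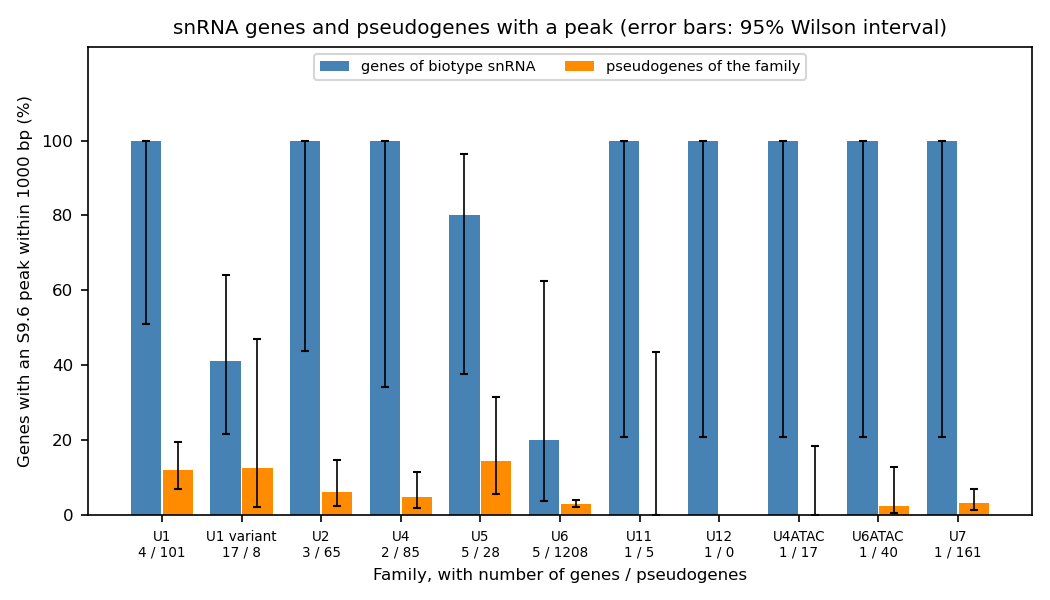
Share of genes with an S9.6 peak within 1000 bp (y axis, %) by family (x axis, with the numbers of genes and of pseudogenes), for snRNA genes in blue and pseudogenes in orange, with 95% Wilson intervals. U1 genes stand at 4 of 4 against 11.9% of U1 pseudogenes, and U6 genes at 1 of 5 against 2.81%.

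The proteins that make and carry snRNAs were taken as 5 lists with 111 genes. Of these, 69 had a peak within 1000 bp of either end (62.2%, 95% interval 52.9 to 70.6), against 40.9% of 19126 protein-coding genes, and 32 reached a maximum of 5 (28.8% against 14.8%). The median maximum of those with a peak was 4, the same as over all protein-coding genes. A boundary peak may belong to a neighbour.

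Factors of snRNA promoters had a peak at 11 of 14, with 15 at ELL, a subunit of the little elongation complex, 12 at ZNF143, which binds the distal element, and 9 at POU2F1 (OCT1). Of the SNAPc subunits SNAPC1, SNAPC2, SNAPC4 and SNAPC5 had a peak of 3 or 4 and SNAPC3 had none. BDP1, part of the RNA polymerase III factor TFIIIB, had no peak, and ICE2 had 1 inside its span alone. Subunits of Integrator, which cleaves the ends of snRNA transcripts made by RNA polymerase II, had 12 of 15, with 10 at INTS14 and 9 at INTS13 and INTS9. The catalytic subunit INTS11 had 3 peaks inside its span alone, and INTS2 had none.

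Genes for export, assembly and modification had 14 of 27 (51.9%, 95% interval 34.0 to 69.3). MEPCE, which caps 7SK RNA, and XPO1, the export receptor, reached 12, and NCBP1 of the cap-binding complex reached 10. CLNS1A, which delivers Sm proteins, had no peak, and COIL, the marker protein of Cajal bodies, had 1 inside its span. Sm and LSm proteins, the ring that snRNAs carry, had the lowest share at 8 of 17 (47.1%, 95% interval 26.2 to 69.0). Maxima were 13 at SNRPD3, 11 at SNRPD2 and 4 at LSM5. The intervals of both these lists hold the 40.9% of all protein-coding genes, so neither share was told apart from it. LSM10 and LSM11, which belong to the U7 ring, had no peak. The peak of 10 next to RNU7-1 covers no base of that gene and also lies at C12orf57. Proteins of single snRNPs had 24 of 38 (63.2%, 95% interval 47.3 to 76.6), with 12 at SNRPA and 9 at SNRNP70, both of U1, and 8 at SF3B2 of U2. PRPF3 and PRPF31, of the U4/U6 particle, had peaks inside their spans alone.

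Short RNA genes outside the U families with a related upstream promoter had a peak at 4 of 7 (57.1%, interval 25.0 to 84.2). The interval holds the 33.9% of all genes and lies above the 11.6% of other short genes. With so few genes, the share was not told apart from that of all genes. Whether these peaks belong to neighbouring genes was not tested. RPPH1, the RNA of RNase P, reached 12, RMRP reached 8, RNY1 reached 4 and RN7SK, the inhibitor RNA of P-TEFb, reached 3. RNY3, RNY4 and RNY5 had none.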

How the data were processed

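The deposited data are the peak list of 1 S9.6 CUT&Tag library of A549 cells. Its values are signal that the authors' caller wrote per peak: total coverage and maximum coverage, all whole numbers, which were read as not scaled to depth. Per the submitters' processing notes the build was GRCh38 and the tools included Bowtie2 2.4.2 and SEACR 1.3, besides SAMtools 1.9, bedtools 2.30.0, deepTools 3.5.2 and fastp 0.23.2. The peak threshold, the use of IgG as control, and what was done with duplicates and with reads that map to several copies: not given in the sources used here.

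Peaks with at least 1 bp within 1000 bp of a gene span, or for protein lists of either end, were counted with Python 3.11.15, pandas 2.3.3 and statsmodels 0.14.6, after a check of the overlap step on simulated data. Genes came from RefSeq GRCh38.p14. Every snRNA gene is named. Values are given in full for those with a peak outside the U1 variants and for the 5 highest variants. Protein lists name the 3 highest and the first 2 without a boundary peak; SNAPc subunits, and RNU2-1's neighbours, were named after their values were seen. The genes and lists were chosen with earlier results of these data known. The short-gene and pseudogene classes were chosen after the gene table was seen. Planned results on summit side and on promoter patterns of snRNA genes were not made, since the tables used give neither strand nor promoters for them; the patterns were searched in neighbours' windows instead. The alternatives were other windows, higher peaks, summits, overlap of 100 bp and peaks free of other genes.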

Additional observations from a re-analysis of the deposited data

How the results depend on the processing

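The count of 26 genes with a peak stayed between 21 and 31 with windows of 0, 500, 2000 and 5000 bp, and was 25 with summits or with peaks of maximum coverage 3 or more and 26 with an overlap of 100 bp. Counting neighbouring snRNA genes as 1 locus merged none of the 41, so it tested nothing. It fell to 17 with peaks of 5 or more, and the number of distinct peaks fell from 31 to 18. With peaks free of any other gene's boundary it was 13 of 41 (31.7%), counting any peak of a gene and not the strongest alone. In that setting 5 of the 11 families kept a gene with a peak. No share over all genes or other short genes is given here for that setting, so the 31.7% has no background beside it. The median maximum coverage, 5.5, was 4 to 5.5 in the alternatives run. With windows of 0 bp, U5 went from 4 to 2 genes and U7 from 1 to 0. Protein genes with a boundary peak went from 69 to 32 with peaks of 5 or more, and were 59 to 79 in the 3 other settings. Low coverage limits every call: at a median maximum of 2, a missing peak is not shown to be missing signal. No paired analysis was possible because there was 1 library with a peak list.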

Other observations

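Among the pseudogenes, 2 U1 copies on chromosome 14 carried peaks as high as those of the standard U1 genes. RNU1-28P (chr14:34556226-34556389) had a peak of 1542 bp at chr14:34555260-34556801 with a maximum of 13 and a total of 6871, and RNU1-27P (chr14:34546714-34546877) had a peak of 1617 bp at chr14:34546401-34548017 with a maximum of 10 and a total of 6760. Both peaks covered the whole pseudogene, and these were the only 2 of 1718 RNU-named pseudogenes with a peak of 10 or more. RNU1-1, the highest standard U1 gene, had a maximum of 10 and a total of 3422. Both names were chosen after their values were seen.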
